A study of Mus musculus with 24 samples.

Results

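A set of 40 genes that type I interferon induces, and that belong to neither the *Ifit* nor the *Gbp* family, was followed in RNA-seq libraries of mouse bone marrow–derived macrophages (BMDM). They were taken from a list of symbols and not by a threshold on these counts. Genes and lists were, however, chosen with earlier results of these data known, so the shares of genes called below describe this list. Each symbol was matched to the Ensembl identifier of the count table: 40 of its 56884 genes, all 40 of which were among the 13679 genes that passed the filter on low counts. Grouped by function they covered ISG15 conjugation (4 genes), oligoadenylate synthetases (6), Mx GTPases (2), nucleic acid sensing (5), antiviral effectors acting on nucleotides and translation (5), PARP and DELTEX proteins (3), transcription and chromatin (5), ubiquitin ligases (2), membrane, secreted and trafficking proteins (4) and other induced proteins (4).

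Type I interferons bind a receptor made of IFNAR1 and IFNAR2, whose kinases JAK1 and TYK2 activate STAT2. STAT2 and IRF9 are subunits of the complex ISGF3, which binds a short element, the interferon-stimulated response element (ISRE), in the promoters of its target genes. Macrophages kept in culture without infection hold a low, tonic level of this program, and IRF7, itself induced by interferon, amplifies it.

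The data comprised 24 libraries in 6 groups of 4. The cells came from wild-type C57BL/6J females, 9 weeks old, numbered 1, 2, 4 and 5; marrow was differentiated with M-CSF, and each mouse contributed to every group, so that replicates were separate animals. Naive cells were left unstimulated. The IL-4/IL-13 group received both cytokines for 24 h, each at 20 ng/mL. Each remaining group received them too, after 1 h with an inhibitor. Tunicamycin (5 µg/mL) blocks N-glycosylation and stresses the endoplasmic reticulum. Sal003 (10 µM) blocks the dephosphorylation of eIF2α, whose phosphorylation is the central event of the integrated stress response (ISR). The third inhibitor, oligomycin (1 µM), blocks ATP synthase. Oligomycin was given in 2 groups, of which 1 also held ISRIB (1 µM), a compound that counteracts the ISR. Titles and library names disagree on which group that was, so the groups are called oligomycin set A (ISRIB according to the titles, none according to the library names) and oligomycin set B (the reverse), and their difference cannot be ascribed to ISRIB in a known direction.

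The libraries held 16238727 to 26725278 reads on genes (median 18999998). All 7 macrophage markers examined were detected, while *Cd3e*, *Cd3g* and *Ncr1* of T and NK cells and *Hba-a1* and *Hbb-bs* of erythroid cells had 3 counts or fewer in every library. All 6 check genes of the cytokine response rose with IL-4/IL-13 and fell under each inhibitor, and all 6 stress genes rose with tunicamycin. Against IL-4/IL-13, 4 stress genes rose with Sal003, where *Dnajb9* fell, and 5 rose with oligomycin set A. With oligomycin set B 4 rose and *Hspa5* fell. Compared directly, set A exceeded set B for 5 stress genes, while *Asns* did not pass. Set B exceeded set A for 5 cytokine check genes, and *Mgl2* went the other way. Whether these differences bear on the ISRIB labels was not tested. Markers of plasmacytoid dendritic cells, a strong source of type I interferon, summed to 151 to 195 CPM (counts per M reads after TMM scaling) in naive libraries, 72.9 to 79.6 in IL-4/IL-13, 49.1 to 52.4 in tunicamycin and 77.5 to 87.2 in Sal003. The sums were 57.6 to 64.4 in set A of the oligomycin libraries and 68.6 to 81.7 in set B. Of those 5 markers 4 were detected and *Klk1* was not above 3 counts; their part in the results was not tested. The 5 neutrophil markers, with *Ly6g* at 3 counts or fewer, summed to 26.6 to 46.8 CPM in naive libraries, 15.6 to 27.6 in IL-4/IL-13, 0.0567 to 0.238 in tunicamycin, 3.22 to 5.56 in Sal003, 1.51 to 2.88 with oligomycin set A and 11.4 to 15.5 with oligomycin set B. The 3 fibroblast markers ranged more widely within a group, from 17.0 to 128.9 CPM in naive libraries, 14.3 to 81.4 in IL-4/IL-13 and 3.36 to 23.5 in tunicamycin. Conventional dendritic cell markers summed to at most 8.07 CPM and B cell markers to at most 1.23 CPM in any library. The part of these cells was not tested either. In bulk RNA a smaller share of responding cells and less RNA per cell cannot be told apart.

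Promoter sequences of 6 genes that changed under tunicamycin are shown first, chosen after their values were seen, because they hold the core letters of the ISRE in genes that rose and in genes that fell. They are RefSeq windows upstream of the start site, taken from a table of build GRCm38.p6, placed in GRCm39 by exact match, and cut where the annotated gene begins. Capitals mark each match, on either strand, to the ISRE core searched, GAAA and GAAA with any 2 bases between them (overlapping matches are joined). The first 4 genes rose under tunicamycin and the last 2 fell.
Isg15, chr4:156285304-156285525, minus strand: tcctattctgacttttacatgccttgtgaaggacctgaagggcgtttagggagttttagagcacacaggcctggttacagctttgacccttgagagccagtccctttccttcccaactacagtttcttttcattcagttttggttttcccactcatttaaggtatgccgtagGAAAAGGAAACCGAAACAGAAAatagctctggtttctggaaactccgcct
Rsad2, chr12:26506452-26506701, minus strand: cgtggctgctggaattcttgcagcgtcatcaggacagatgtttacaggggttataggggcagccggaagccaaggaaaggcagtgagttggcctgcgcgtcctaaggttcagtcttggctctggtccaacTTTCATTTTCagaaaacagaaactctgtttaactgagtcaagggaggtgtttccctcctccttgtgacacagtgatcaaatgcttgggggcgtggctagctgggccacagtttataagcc
Slfn8, chr11:82911670-82911886, minus strand: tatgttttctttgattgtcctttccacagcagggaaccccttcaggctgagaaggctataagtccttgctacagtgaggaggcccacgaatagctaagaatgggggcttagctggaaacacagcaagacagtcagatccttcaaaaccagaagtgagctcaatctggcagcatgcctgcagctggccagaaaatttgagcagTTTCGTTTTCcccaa
Bst2, chr8:71990117-71990366, minus strand: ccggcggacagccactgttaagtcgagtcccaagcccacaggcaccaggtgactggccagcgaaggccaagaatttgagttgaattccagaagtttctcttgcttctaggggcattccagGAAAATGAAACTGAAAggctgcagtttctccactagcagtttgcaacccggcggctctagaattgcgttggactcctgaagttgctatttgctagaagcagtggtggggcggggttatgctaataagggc
Oas3, chr5:120915730-120915974, minus strand: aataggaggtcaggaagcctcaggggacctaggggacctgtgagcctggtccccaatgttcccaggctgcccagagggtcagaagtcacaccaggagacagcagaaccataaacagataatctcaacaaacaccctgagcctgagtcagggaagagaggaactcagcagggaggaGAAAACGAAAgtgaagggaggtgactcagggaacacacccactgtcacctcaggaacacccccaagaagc
Phf11b, chr14:59578811-59579029, minus strand: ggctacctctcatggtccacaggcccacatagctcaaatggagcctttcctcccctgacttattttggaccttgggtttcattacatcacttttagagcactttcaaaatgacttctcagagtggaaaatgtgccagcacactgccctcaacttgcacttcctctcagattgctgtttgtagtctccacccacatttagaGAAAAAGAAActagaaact
In *Isg15* 3 overlapping matches began 78, 72 and 66 bases before the RefSeq start, and in *Bst2* 2 matches began at 130 and 124. The single matches began 120 bases upstream in *Rsad2*, 48 in *Slfn8*, 75 in *Oas3* and 50 in *Phf11b*. A window, from 250 bases before to 50 after the start, was found for 29 of the 40 genes, and 12 of these 29 (41.4%) held the ISRE core, against 3.44% of all 32851 windows. The other carriers were *Oas1a*, *Oas1g*, *Ifih1*, *Slfn5*, *Stat2* and *Trim30a*. By comparison, the core of the interferon-γ element GAS (TTCNNNGAA) was in 3 (10.3%) against 8.3% of all windows, and the C/EBP–ATF composite element (TGATGNAA) in 3 (10.3%: *Phf11b*, *Phf11d* and *Lgals3bp*) against 3.97%. A match describes these letters and no more. No window of *Usp18*, *Oas2*, *Mx1*, *Mx2*, *Dhx58*, *Zbp1*, *Ifi204*, *Parp9*, *Parp14*, *Rtp4* or *Tor3a* was used here.

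Across the 6 groups levels were graded, with IL-4/IL-13 and tunicamycin as the low groups and the other 4 as the high groups. *Isg15*, for example, had means of 5.29 CPM in IL-4/IL-13, 25.1 in tunicamycin and 59.5 in naive. For all 40 the means of IL-4/IL-13 and tunicamycin were below the means of the other 4 groups. For 39 of 40 every single library of those low groups lay below every library of the high groups, with *Usp18* as the exception. The share of all genes with such a separation was not computed, so these counts are a description. Sal003 gave the highest mean for 27 genes, naive for 9, set B for 3 and set A for 1, and the lowest mean was that of IL-4/IL-13 for 23 genes and of tunicamycin for 17. Per kilobase of exon, the scale on which genes can be compared, the naive level was highest for *Lgals3bp* (192 CPM per kb), *Bst2* (180.1) and *Ifi204* (100.5), and lowest for *Herc6* (5.06) and *Mx2* (7.69).

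**Figure D1:**
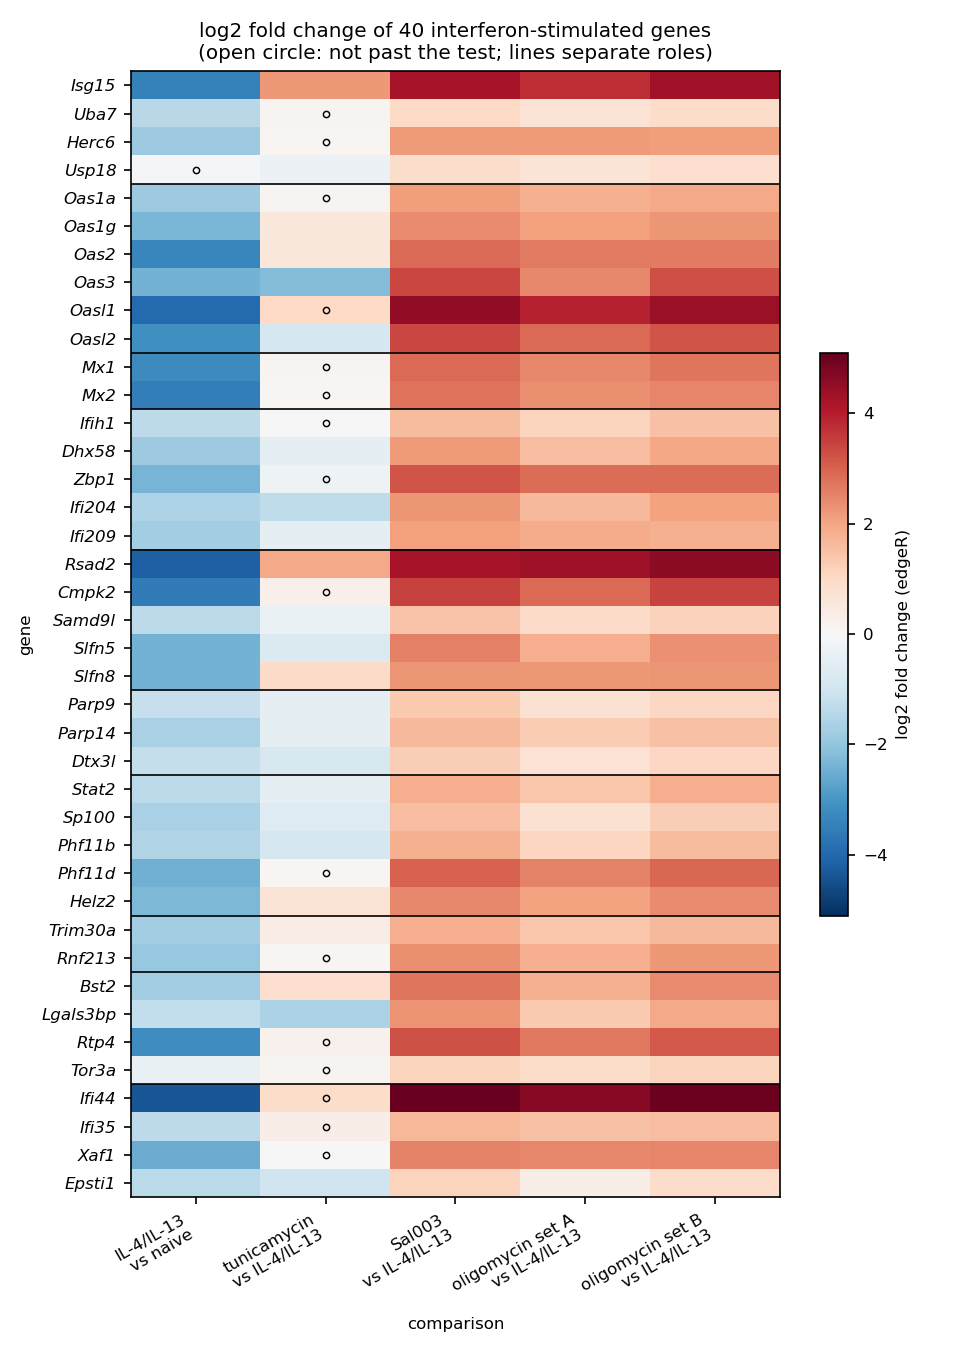
Fitted log2 fold change of each of the 40 genes (rows, grouped by role between the lines) in 5 comparisons (columns); red is higher and blue lower in the group named first, and an open circle marks a gene that did not pass the test. The column for IL-4/IL-13 against naive is blue with 1 open circle, at *Usp18*, the column for tunicamycin is mixed with 16 open circles, and the other 3 columns are red throughout.

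The first comparison asks what the cytokines alone did. With IL-4/IL-13, 39 of the 40 genes fell relative to naive (97.5%, against 30.4% of all genes tested; edgeR quasi-likelihood test with Benjamini-Hochberg adjustment over all genes, threshold 0.05), none rose (against 30.1%; 0 also at an unadjusted *P* under 0.05 and by DESeq2), and 35 fell at least 2.5-fold (87.5% against 5.58%). The median log2 fold change was -1.86, against -0.02 over all genes. The plot of fold changes shows all roles in blue. The median was lowest among the Mx GTPases (-3.38) and the oligoadenylate synthetases (-2.77), and nearest to 0 in the PARP and DELTEX group (-1.22). In the same comparison 6 of 7 macrophage markers, 3 of the 4 neutrophil markers tested and 2 of the 3 plasmacytoid dendritic cell markers tested also fell, and none of these rose.

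*Ifi44*, an interferon-induced protein with antiviral activity (chromosome 3, 151436559 to 151455625 in GRCm39), was at 80.3, 57.3, 61.4 and 59.6 CPM in naive cells of mice 1, 2, 4 and 5 and at 2.67, 2.27, 3.32 and 4.07 CPM with IL-4/IL-13. The groups were far apart, and the log2 fold change was -4.35 ± 0.38 (SE from the fit of all 24 libraries, n = 4 mice per group, edgeR adjusted *P* = 2.2e-10). *Rsad2* encodes viperin, which makes a chain-terminating ribonucleotide from CTP (chromosome 12, 26492745 to 26506451). Its naive levels were 170.0, 147, 154 and 142 CPM, and its IL-4/IL-13 levels 7.24, 6.86, 9.48 and 9.95 CPM. No library of either group came near the other, with a log2 fold change of -4.18 ± 0.35 (adjusted *P* = 1.2e-10). *Oasl1*, which restrains translation of *Irf7* (chromosome 5, 115061294 to 115075974), went from 53.7, 49.6, 45.3 and 42.7 CPM to 2.73, 1.87, 3.00 and 4.25 CPM, a log2 fold change of -3.97 ± 0.41 (adjusted *P* = 4.1e-09). *Usp18*, the protease that removes ISG15 and also damps receptor signaling, had 67.0, 73.3, 64.1 and 61.5 CPM in naive cells and 62.2, 63.0, 61.0 and 58.6 CPM with IL-4/IL-13. Those ranges overlapped, and the log2 fold change of -0.12 ± 0.13 did not pass (adjusted *P* = 0.44).

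**Figure D2:**
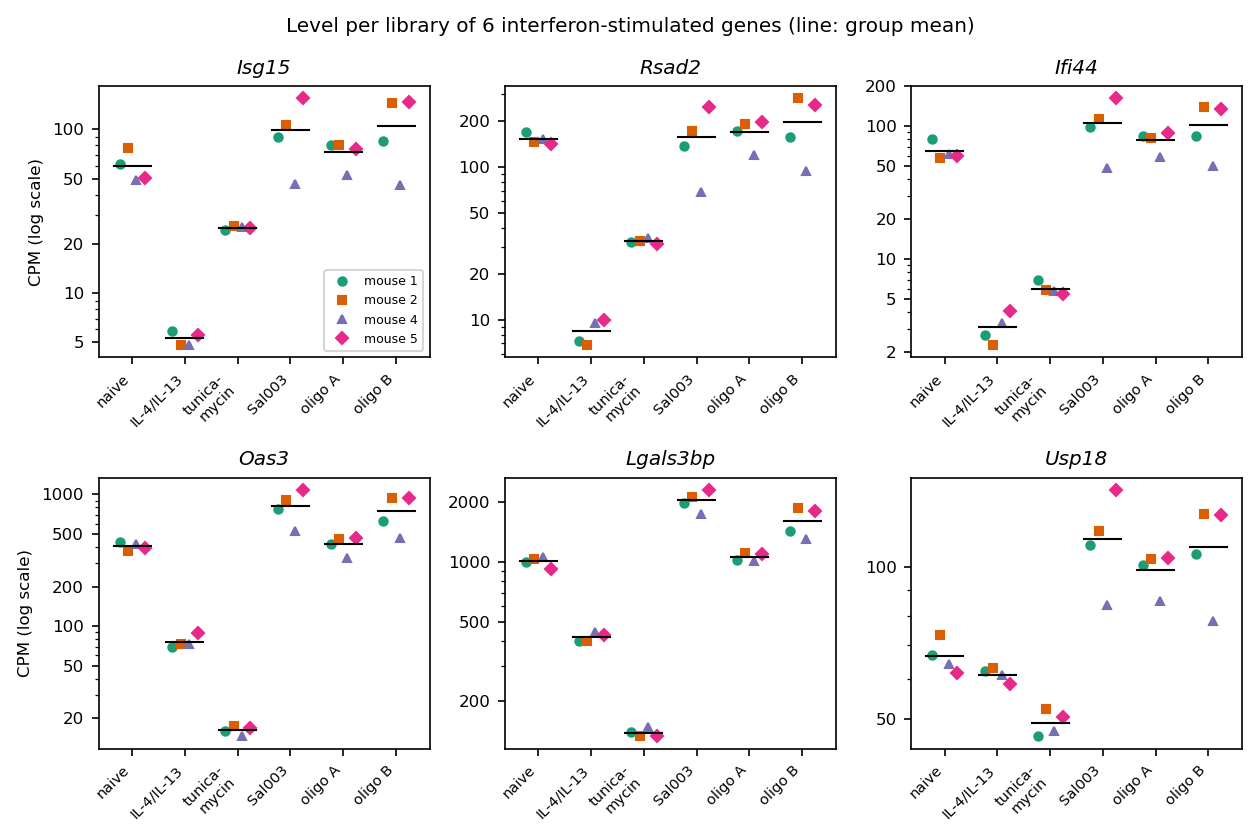
Level of 6 genes in each of the 24 libraries (CPM, log axis); symbols are mice and black lines group means. *Isg15* and *Rsad2* sit higher under tunicamycin than under IL-4/IL-13, *Oas3* and *Lgals3bp* sit lower, *Usp18* changes least between naive and IL-4/IL-13, and mouse 4 (triangle) is the lowest symbol under Sal003 in all 6 panels.

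With tunicamycin added to the cytokines, calls went both ways, and the share that passed (60%) was below that of all genes tested (76.3%). Under tunicamycin 8 of 40 rose relative to IL-4/IL-13 (20%, against 38.7% of all genes tested), 16 fell (40%, against 37.6%), and 16 did not pass, with log2 fold changes between -0.25 and 1.02. The share that fell was near the background and the share that rose was below it. Only *Isg15* and *Rsad2* rose at least 2.5-fold (5% against 8.25%), and only *Oas3* and *Lgals3bp* fell as much (5% against 13%). The median over the 40 genes was 0.09, against 0.01 over all genes. Libraries of both groups did not overlap for 29 genes, of which 12 were higher (against 37.8% of all genes) and 17 lower (against 36.1%) under tunicamycin. In all 4 mice 16 genes were higher and 17 lower. The share of all genes with such a direction was not computed, but it is at least the 37.8% and 36.1% whose libraries did not overlap. How many rose depended on the model. When only these 8 libraries were fitted 16 rose, and without the filter on low counts 13 did. With the mouse as a block *Oasl1*, *Rtp4*, *Ifi44* and *Ifi35* also passed (adjusted *P* = 0.018, 0.04, 0.025 and 0.014), giving 12. The main model took the spread of each gene from all 24 libraries. The median coefficient of variation over the 40 genes was 4.9% in tunicamycin and 8.4% in IL-4/IL-13. It was 10.4% in naive, 11.2% in set A, 25.5% in Sal003 and 27.2% in set B. Genes that did not pass were thus not judged by the spread of the compared groups alone. In the same comparison all 4 neutrophil markers tested and all 3 plasmacytoid dendritic cell markers tested fell, as did 2 of 3 fibroblast markers, while 3 macrophage markers rose and 3 fell; their part was not tested.

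**Figure D3:**
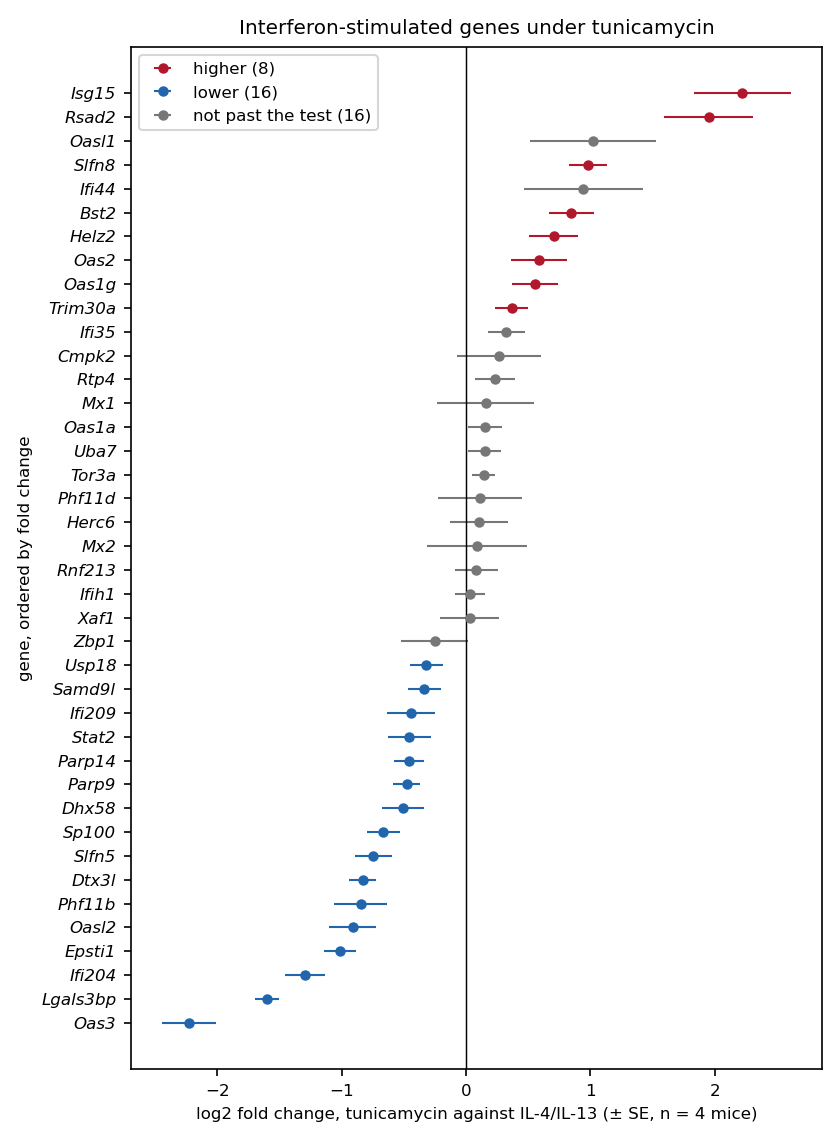
Log2 fold change under tunicamycin against IL-4/IL-13 for each of the 40 genes, ordered by size (n = 4 mice per group). Bars are 1 SE from the fit of all 24 libraries and do not show the spread of these groups alone. The 8 genes that rose (red) reach from *Trim30a* (0.37) to *Isg15* (2.22), the 16 that fell (blue) from *Usp18* (-0.32) to *Oas3* (-2.23), and the 16 that did not pass (grey) lie between -0.25 and 1.02.

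*Isg15*, the ubiquitin-like modifier that is attached to newly made proteins (ENSMUSG00000035692, chromosome 4, 156283883 to 156285303), was at 5.90, 4.84, 4.84 and 5.58 CPM with IL-4/IL-13 and at 24.4, 25.6, 25.2 and 25.02 CPM with tunicamycin. All 4 tunicamycin libraries were within a narrow band above the control libraries, and the log2 fold change was 2.22 ± 0.39 (adjusted *P* = 1.2e-05). Of its exon bases 31.1% lie over exons of *Gm46878* on the opposite strand, and reads of these genes cannot be told apart unless strand was used in counting. *Rsad2* had 32.5, 32.7, 34.3 and 31.2 CPM with tunicamycin, all above its 6.86 to 9.95 CPM with IL-4/IL-13, a log2 fold change of 1.95 ± 0.36 (adjusted *P* = 2.4e-05). Both stayed well below naive: the log2 fold change of tunicamycin against naive was -1.24 ± 0.30 for *Isg15* and -2.23 ± 0.30 for *Rsad2*.

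*Slfn8*, a Schlafen family member (chromosome 11, 82892984 to 82911669), rose from 36.8, 38.4, 38.7 and 42.9 CPM to 73.5, 81.5, 76.4 and 78.7 CPM (1.98-fold, adjusted *P* = 2.8e-06). The groups were separate, although 32.8% of the 50-base stretches of its exons also occur in other genes, first *Gm74281* and then *Slfn9*. Of its exon bases 26.7% lie over exons of *Gm74280* and *Gm74281* on the opposite strand. *Bst2*, tetherin, which holds budding virions at the cell surface (chromosome 8, 71986895 to 71990114), went from 63.9, 59.9, 65.8 and 65.7 CPM to 118.5, 113, 118 and 111 CPM (1.802-fold, adjusted *P* = 0.00018). Again no library overlapped. *Helz2*, a helicase that acts as a transcriptional coactivator, went from 32.4, 28.3, 29.9 and 33.8 CPM to 47.3, 49.8, 54.9 and 51.3 CPM (1.63-fold, adjusted *P* = 0.0023). *Oas2*, which makes the oligoadenylates that activate RNase L, went from 31.3, 32.2, 25.5 and 39.1 CPM to 48.7, 50.7, 42.7 and 51.0 CPM (1.51-fold, adjusted *P* = 0.02). Its groups were separate too.

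At the other end stood *Oas3*, a synthetase of the same family (ENSMUSG00000032661, chromosome 5, 120891163 to 120915729), next to *Oas2* in the genome. It fell from 69.5, 73.7, 73.6 and 89.0 CPM to 16.1, 17.4, 14.6 and 16.9 CPM, a log2 fold change of -2.23 ± 0.21 (4.68-fold, adjusted *P* = 8.4e-10). The highest tunicamycin library (17.4 CPM) was far below the lowest control library (69.5 CPM). *Lgals3bp*, a secreted glycoprotein that binds galectin-3 (ENSMUSG00000033880, chromosome 11, 118280716 to 118292918), fell from 401, 402, 444 and 432 CPM to 139.8, 133, 148 and 133 CPM (3.03-fold, adjusted *P* = 4.6e-14).

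*Ifi204*, a PYHIN family sensor of DNA, fell from 118, 121, 119.8 and 136 CPM to 52.4, 52.4, 46.6 and 50.1 CPM (2.46-fold, adjusted *P* = 9.3e-08). The ranges were separate, with 20.6% of its 50-base stretches shared with other genes. *Epsti1*, an interferon-induced regulator of macrophage activation, fell from 54.4, 54.5, 55.0 and 52.9 CPM to 28.1, 25.1, 26.0 and 28.3 CPM (2.01-fold, adjusted *P* = 1.4e-07). *Oasl2* fell from 56.2, 53.4, 55.9 and 74.96 CPM to 33.7, 31.7, 32.2 and 30.1 CPM (1.88-fold, adjusted *P* = 0.00012). Mouse 5 stood above the other mice in its control group. *Phf11b*, a PHD finger protein, fell from 19.6, 17.1, 18.5 and 21.4 CPM to 11.1, 10.3, 11.3 and 9.73 CPM (1.799-fold, adjusted *P* = 0.00084), and many of the 50-base stretches of its exons are shared, first with *Phf11d* and then *Phf11a*.

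In some families genes of both directions were called, where 38.7% of all genes tested rose and 37.6% fell. Family counts under tunicamycin are a description of these few genes and were not tested. Of the 4 genes of ISG15 conjugation *Isg15* rose and *Usp18* fell (log2 fold change -0.32, adjusted *P* = 0.031), while the activating enzyme *Uba7* (0.15, adjusted *P* = 0.31) and the ligase *Herc6* (0.11, adjusted *P* = 0.67) did not pass. Among the synthetases *Oas1g* (0.56) and *Oas2* rose and *Oas3* and *Oasl2* fell, with *Oas1a* (0.15) and *Oasl1* (1.02, adjusted *P* = 0.062) not past the threshold. *Oas1g* shares 48.7% of its 50-base stretches with other genes, *Oas1a* among them, so its reads may be split. Among the effectors *Rsad2* and *Slfn8* rose, *Slfn5* (-0.74) and *Samd9l* (-0.33) fell, and the mitochondrial nucleotide kinase *Cmpk2*, the neighbor of *Rsad2*, did not pass (0.27, adjusted *P* = 0.48). In mice of the C57BL/6 background both Mx genes encode defective proteins, and neither *Mx1* (0.16, adjusted *P* = 0.7) nor *Mx2* (0.09, adjusted *P* = 0.83) passed.

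Of the 5 nucleic acid sensors *Ifi204*, *Ifi209* (-0.44) and *Dhx58*, which encodes LGP2 (-0.51), fell, whereas *Ifih1*, which encodes MDA5 (0.03), and the Z-nucleic acid sensor *Zbp1* (-0.25) did not pass. *Ifi209* shares 34.2% of its 50-base stretches with other genes, *Ifi214* first. All 3 genes of the PARP and DELTEX group fell: *Parp9* by 0.48, *Parp14* by 0.46 and *Dtx3l* by 0.83 on the log2 scale; *Parp9* and *Dtx3l* overlap in the genome and act as one complex. Among regulators of transcription and chromatin the ISGF3 subunit *Stat2* (-0.45), the nuclear body protein *Sp100* (-0.66) and *Phf11b* fell, *Helz2* rose, and *Phf11d* (0.12) did not pass. The ubiquitin ligase *Trim30a* rose (0.37, adjusted *P* = 0.016) and *Rnf213* did not pass (0.08). The torsin ATPase *Tor3a* (0.14), the receptor transporter *Rtp4* (0.23), *Ifi35* (0.33), *Xaf1* (0.03) and *Ifi44* (0.94, adjusted *P* = 0.068) did not pass either. The calls of *Oas2* and *Trim30a* ended without mouse 2 (highest adjusted *P* = 0.075 and 0.065), that of *Dhx58* without mouse 1 (0.05), that of *Usp18* without mouse 1 or 2 (0.2), that of *Samd9l* without mouse 1 or 5 (0.16), and those of *Ifi209* and *Stat2* without mouse 1, 2 or 5 (0.14 and 0.082). Without mouse 4 or 5, *Oasl1*, *Ifi44* and *Ifi35* passed (lowest adjusted *P* = 0.021, 0.011 and 0.015), and without mouse 4 *Tor3a* did (0.018).

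The ISRE core was found in promoters of genes of either direction. Of the 8 that rose 7 had a window and 6 of these held the core (*Isg15*, *Oas1g*, *Rsad2*, *Slfn8*, *Trim30a* and *Bst2*). Of the 16 that fell 11 had a window and 4 held it (*Oas3*, *Slfn5*, *Stat2* and *Phf11b*), and of the 16 that did not pass 11 had a window and 2 held it (*Oas1a* and *Ifih1*). These counts are a description and were not tested.

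Whatever their change against IL-4/IL-13, all 40 genes were lower under tunicamycin than in naive cells (100%, against 40.5% of all genes), 33 of them at least 2.5-fold (against 13.8%), with a median log2 fold change of -2.21 against -0.05 over all genes. Tested directly against the other inhibitors, all 40 were lower under tunicamycin than under Sal003 (background 36%), set A (32.1%) and set B (35.7%). At least 2.5-fold lower were 36, 31 and 34 (backgrounds 10.3%, 7.65% and 10%), and the medians were -2.28, -1.90 and -2.10. Fold changes reached -5.65 for *Oas3* against Sal003.

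The remaining inhibitor groups shared the IL-4/IL-13 libraries as reference, so that their values are given side by side. With Sal003 all 40 genes rose (100%, against 25.9% of all genes), 35 of them at least 2.5-fold (87.5% against 2.24%). Set A raised all 40 (against 34%), 29 at least 2.5-fold (72.5% against 4.4%), and set B all 40 (against 27.9%), 32 at least 2.5-fold (80% against 2.6%). The median log2 fold changes were 2.27, 1.85 and 2.17, against 0 or 0.01 over all genes. The smallest rises were those of *Usp18* under Sal003 (0.89) and set B (0.84) and of *Epsti1* under set A (0.33, adjusted *P* = 0.021).

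*Ifi44* had 99.0, 112, 48.3 and 162 CPM with Sal003, 84.4, 81.8, 58.8 and 88.3 CPM with set A, and 84.4, 138, 50.2 and 134 CPM with set B. In each group mouse 4 was lowest, and still far above the highest IL-4/IL-13 library (4.07 CPM). The log2 fold changes were 5.05 ± 0.37, 4.63 ± 0.37 and 5.00 ± 0.37 (adjusted *P* = 2.4e-11, 5e-11 and 2.3e-11). *Rsad2* had 138, 173, 69.0 and 249 CPM with Sal003, 172, 193, 119.8 and 197 CPM with set A, and 157, 283, 94.6 and 256 CPM with set B. Mouse 4 was again lowest and no library overlapped the reference. The log2 fold changes were 4.21 ± 0.35, 4.33 ± 0.35 and 4.54 ± 0.35 (adjusted *P* = 2.1e-10, 5.2e-11 and 4.9e-11). *Oasl1* had 62.6, 70.2, 31.7 and 113 CPM with Sal003, 49.4, 51.2, 31.4 and 52.2 CPM with set A, and 48.4, 88.6, 30.3 and 88.7 CPM with set B, for log2 fold changes of 4.51 ± 0.40, 3.92 ± 0.41 and 4.39 ± 0.40 (adjusted *P* = 6.2e-10, 4.1e-09 and 8.3e-10).

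Beside naive cells, in comparisons added after the data had been seen, Sal003 and both oligomycin groups had medians near 0. These were 0.27 for Sal003, -0.21 for set A and 0.09 for set B, and no gene differed from naive by 2.5-fold or more in any of the 3 (backgrounds 2.8% higher and 6.61% lower for Sal003, 4.47% and 8.63% for set A, and 3.18% and 6.46% for set B). Sal003 was higher for 14 genes (35%, against 31.7% of all genes), namely *Isg15*, *Usp18*, *Oas3*, *Ifih1*, *Zbp1*, *Ifi204*, *Stat2*, *Phf11d*, *Rnf213*, *Bst2*, *Lgals3bp*, *Tor3a*, *Ifi44* and *Ifi35*, and lower for 2, *Mx2* and *Uba7* (5% against 30.8%). Set A was higher for 2, *Tor3a* and *Usp18* (5% against 35.5%), and lower for 15 (37.5% against 35.5%). Set B was higher for 9 (22.5% against 32.6%) and lower for 5 (12.5% against 31.2%). All these shares were near or below the background, and the counts moved with the mice included: Sal003 was higher for 24 genes without mouse 4 and for 6 without mouse 5, and set B for 17 and 4. Without mouse 1 set A was lower for 9 genes, set B for 2 and Sal003 for none. With the mouse as a block Sal003 was lower for 4 genes.

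**Figure D4:**
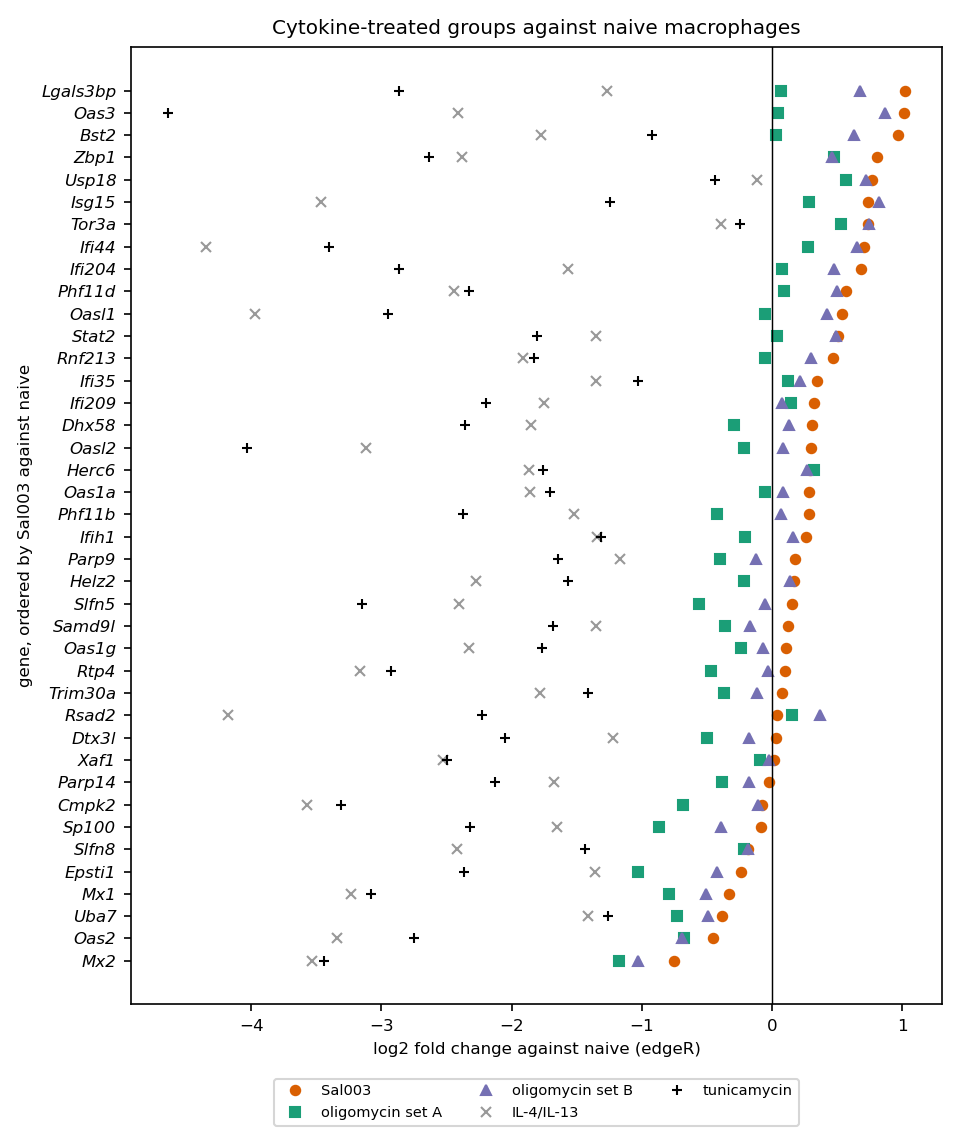
Log2 fold change against naive cells for each of the 40 genes, ordered by the value under Sal003, for 5 groups (symbols). Sal003, set A and set B lie around 0, between -1.17 and 1.02, whereas IL-4/IL-13 (median -1.86) and tunicamycin (median -2.21) lie to the left.

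Some genes, named here after their values were seen, exceeded naive in every library. *Lgals3bp*, at 1000, 1043, 1066 and 928 CPM in naive cells, had 1994, 2133, 1756 and 2316 CPM with Sal003 (log2 fold change 1.02 ± 0.09, adjusted *P* = 4.3e-10) and 1434, 1877, 1316 and 1811 CPM with set B (0.67 ± 0.09, adjusted *P* = 4.6e-07). Set A, at 1023, 1110, 1012 and 1094 CPM, overlapped naive (0.07, adjusted *P* = 0.49). *Oas3* was at 437, 375, 423 and 395 CPM in naive cells and at 774, 901, 526 and 1085 CPM with Sal003 (1.01 ± 0.18, adjusted *P* = 3.7e-05). *Usp18* had 110.2, 118, 84.0 and 142 CPM with Sal003 and 101, 103.5, 85.5 and 104 CPM with set A, all above its naive libraries (0.77 and 0.57, adjusted *P* = 1e-05 and 0.00033). *Tor3a* was likewise above naive without overlap, by 0.74 (Sal003), 0.53 (set A) and 0.75 (set B) on the log2 scale.

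Others stayed below. *Mx2* had 34.1, 27.9, 23.8 and 25.2 CPM in naive cells, 15.7, 18.8, 7.81 and 23.6 CPM with Sal003, 13.4, 12.7, 8.38 and 14.6 CPM with set A and 10.9, 18.9, 7.46 and 16.9 CPM with set B. Every library of the inhibitor groups was below the naive range, with log2 fold changes of -0.75, -1.17 and -1.03 (adjusted *P* = 0.0086, 0.00014 and 0.00069). *Uba7* was lower than naive in all 3 (-0.38, -0.73 and -0.49). *Epsti1* in set A had 73.6, 69.6, 60.3 and 68.7 CPM against 144, 149, 131 and 132 CPM in naive cells (-1.03 ± 0.12, adjusted *P* = 3.7e-08), and *Sp100* had 154, 154, 127 and 162 CPM against 304, 272, 267 and 249.3 CPM (-0.87 ± 0.13, adjusted *P* = 1.3e-06).

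Between both oligomycin groups 14 genes had lower levels in the former, set A (35%, against 21.3% of all genes), namely *Oas3*, *Ifih1*, *Dhx58*, *Ifi204*, *Slfn5*, *Parp9*, *Dtx3l*, *Stat2*, *Sp100*, *Phf11b*, *Bst2*, *Lgals3bp*, *Rtp4* and *Epsti1*, and none was higher (against 19.9%; 0 also at an unadjusted *P* under 0.05 and by DESeq2); none was lower or higher by 2.5-fold (against 1.1% and 0.928%). The median was -0.31 against 0 over all genes, and the set B mean was above the set A mean for 36 of 40. *Oas3* had 419, 463, 331 and 469 CPM in set A and 631, 947, 468 and 936 CPM in set B. Each mouse was lower in set A, but the ranges overlapped, because mouse 4 of set B fell within the range of set A (-0.83 ± 0.18, adjusted *P* = 0.00067). *Epsti1*, at 73.6, 69.6, 60.3 and 68.7 CPM against 96.2, 118, 77.5 and 122 CPM, did not overlap (-0.60 ± 0.12, adjusted *P* = 0.00022); besides it, only *Lgals3bp* was separate among the 14 (libraries did not overlap, with lower levels in set A, for 21.1% of all genes). Which mice were included decided the count: 4 genes were lower without mouse 2, 7 without mouse 5, 9 without mouse 1 and 25 without mouse 4, and 23 were lower without the filter on low counts.

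The spread between mice was itself shared by the genes. Within Sal003 mouse 4 had the lowest level of all 40 genes and mouse 5 the highest of all 40. In set A mouse 4 was lowest for 40, and in set B for 39 of 40, where mouse 2 was highest for 31. The median deviation of mouse 4 from the group mean was -0.52, -0.24 and -0.49 on the log2 CPM scale (Sal003, set A, set B), while that over all genes was between 0.002 and 0.008. The ratio of highest to lowest library, as a median over the 40 genes, was 1.89 in Sal003 and 1.29 and 1.82 in oligomycin sets A and B, against 1.26 in naive, 1.21 in IL-4/IL-13 and 1.12 in tunicamycin. In naive and IL-4/IL-13 cells mouse 4 did not stand apart (median deviations -0.05 and -0.04), and IL-4/IL-13 libraries were highest in mouse 5 for 30 genes. Genes are not independent of each other here, so these counts describe 4 mice and are not a test, and the cause of the spread was not tested.

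**Figure D5:**
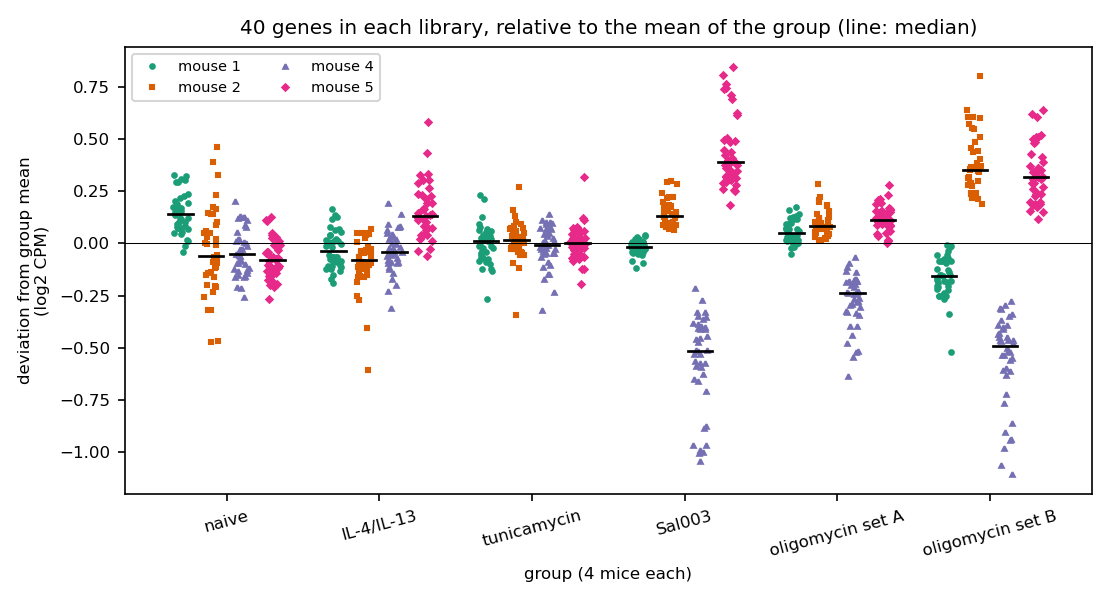
Deviation of each library from its group mean (log2 CPM) for the 40 genes (small symbols) with the median per mouse (black line). Mouse 4 lies below 0 under Sal003 (median -0.52), set A (-0.24) and set B (-0.49), and the medians of the 4 tunicamycin libraries lie between -0.006 and 0.016.

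Upstream in the pathway, transcripts of the interferons were almost absent: none of 20 type I and III ligand genes passed the filter on low counts. *Ifnb1*, interferon-β, had at most 17 counts in a library, with mean levels of 0.298 CPM in naive, 0.07 in IL-4/IL-13, 0.066 in tunicamycin and 0.097 in Sal003, and of 0.319 in oligomycin set A and 0.425 in oligomycin set B. In set B, the group with the highest mean, its level was 0.379, 0.551, 0.113 and 0.658 CPM in mice 1, 2, 4 and 5. Levels by mouse in the other groups are not reported here. Counting error at these depths is large, and no difference was tested.

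Among transcription factors of the pathway, *Irf7* was at 519 ± 65.3 CPM (SD, n = 4) in naive, 31.6 ± 5.02 in IL-4/IL-13, 26.2 ± 1.93 in tunicamycin, 793 ± 319 in Sal003, 337 ± 44.9 in oligomycin set A and 652 ± 298 in oligomycin set B. *Irf9* was at 126 ± 3.65, 63.4 ± 1.67, 50.1 ± 1.38, 119.5 ± 11.7, 119 ± 5.19 and 117 ± 11.5 CPM, in the same order of groups. The means of both were lower in IL-4/IL-13 and tunicamycin than in the other 4 groups. The means of the receptor chains were ordered otherwise: *Ifnar1* was at 206, 167, 188, 174, 132 and 171 CPM and *Ifnar2* at 91.0, 36.7, 58.0, 51.8, 54.8 and 52.2 CPM.

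In the pathway lists, too, counts under tunicamycin are to be read against the 38.7% of all genes that rose and the 37.6% that fell. Of the 9 receptor and kinase genes tested 3 rose (*Ifnar2* by 0.66, *Jak2* by 0.40 and *Ifnar1* by 0.17 on the log2 scale) and 3 fell (*Ifngr1* by 1.02, *Ifngr2* by 0.49 and *Tyk2* by 0.22). Of 9 transcription factors *Stat3* rose (0.47) and 7 fell, among them *Irf2* (-1.77), *Irf5* (-1.61) and *Irf1* (-1.23). Of 15 sensors and adaptors 4 rose, with *Tlr9* first (1.46), *Myd88* (0.68) and *Ticam1* (0.65) next, and 7 fell, led by *Sting1* (-1.01), *Trim25* (-0.91) and *Cgas* (-0.69). Among 10 genes listed as negative regulators 4 rose and 4 fell. *Isg20*, an interferon-induced exonuclease rather than an inhibitor of signaling, rose from 1.63 to 31.6 CPM (4.20 ± 0.32, adjusted *P* = 8.7e-12). *Socs3* rose (3.44 ± 0.13) and *Socs1* fell (-3.90 ± 0.13), both inhibitors of JAK kinases. The phosphatase *Ptpn6* rose (1.22), and *Samhd1*, a dNTP hydrolase, fell (-1.36).

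The *Ifit* and *Gbp* families are induced by interferon as well. All 6 *Ifit* genes tested fell with IL-4/IL-13 (median -5.46) and 5 of 9 *Gbp* genes did (median -1.72), against 30.4% of all genes. Under tunicamycin 4 *Ifit* genes rose, *Ifit1* most (2.11), and 1 fell, and 3 *Gbp* genes rose, *Gbp8* most (4.75), and 2 fell, *Gbp3* (-2.31) and *Gbp2* (-1.78), against the same 38.7% and 37.6% of all genes. The rises of *Ifit3* and *Ifit2* were no longer called without mouse 1 or without mouse 2 (highest adjusted *P* = 0.12 and 0.13). Sal003 raised 6 of 6 and 8 of 9, against 25.9% of all genes.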

How the data were processed

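RNA-seq was performed on 24 libraries, 6 groups of 4 mice. The deposited values were raw counts per gene, which the authors made with GRCm39; the submitters' processing notes name cutadapt 1.8, STAR 2.7, HTSeq 0.9.1 and RSEM 1.2.31. The strand setting of counting is not given in the sources used here. Reads may therefore be shared where exon bases lie over exons of the opposite strand. Besides *Isg15* and *Slfn8*, such genes include *Ifi35* (24.5% of exon bases), *Slfn5* (19.8%), *Tor3a* (17.3%) and *Epsti1* (14.0%). Reads on no gene (12.7% to 15.2% per library) were left out, and a table of TPM values was not used. The depth of 16238727 to 26725278 reads limits precision for low genes.

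Counts were fitted in R 4.3.3 with the quasi-likelihood test of edgeR 4.0.16 (limma 3.58.1) over all 24 libraries, with TMM factors, filterByExpr and Benjamini-Hochberg adjustment over 13679 genes (threshold 0.05). Fold changes are on the log2 scale, and CPM values use the TMM library sizes. Each SE comes from that fit, with the spread of a gene estimated over all groups, and is not the spread of the groups compared. Groups followed the titles and library names. Numbers mark the same mouse in every group, so they pair the libraries: deviations from the group mean correlated with a median r of 0.24 between libraries of the same mouse (above 0.1 in 56 of 60 pairs) and -0.05 between other mice (7 of 180). The main model had no mouse term, since the study's methods state none. Genes were given per library when among the largest changes of a comparison (6 in each direction for tunicamycin, 3 for other comparisons with IL-4/IL-13 or naive, 2 between oligomycin groups) with an adjusted *P* under 0.05, the same direction in 4 of 4 mice and a mean of at least 50 counts; *Irf9*, *Irf7*, *Ifnar1*, *Ifnar2* and *Ifnb1* were always given, and a further gene of that list is not reported here. Genes and lists were chosen with earlier results of these data known, and comparisons of Sal003 and oligomycin with naive cells were added after seeing the data. Alternatives were DESeq2 1.42.0, other normalizations and filters, a mouse block, fits of only the groups compared, each mouse left out, another prior count and a 2-fold threshold. Figures were drawn with matplotlib 3.10.9 in Python 3.11.15.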

Additional observations from a re-analysis of the deposited data

Results flagged for a closer look

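For each of the 40 genes the most distant of the 4 libraries of a group was compared with the spread of the group, by the gap to its neighbor over the whole range (Dixon's 95% limit). The library stood apart in 17 of 240 cases, where 1 in 20 gives about 12. These cases are 40 genes in the same 24 libraries, and the genes moved together, so the count is a description and not a test. In 11 of the 17 cases the library was mouse 4 of oligomycin set A, below the other mice, with CPM of *Isg15* 52.6, *Uba7* 127, *Usp18* 85.5, *Oasl1* 31.4, *Mx1* 45.4, *Dhx58* 89.4, *Zbp1* 102, *Cmpk2* 57.6, *Phf11b* 34.8, *Helz2* 104 and *Rtp4* 148. The ratio misses a low library where another mouse widens the range. In Sal003 and set B mouse 4 was lowest for 40 and 39 genes but was not flagged. Its median deviations there were -0.52 and -0.49, against -0.24 in set A. In the IL-4/IL-13 group mouse 5 stood above the other mice for *Oasl2* 74.96, *Ifi204* 136 and *Xaf1* 16.6 CPM. In naive cells mouse 2 was lowest for *Slfn5* at 437 and *Rnf213* at 419.5 CPM, and mouse 1 was highest for *Phf11d* at 63.1 CPM. The cause was not tested.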

How the results depend on the processing

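In all, 147 values were recomputed and 13 other settings were used, though not every setting for every value. The other prior count was applied only to medians, and the 2-fold threshold only to counts at 2.5-fold. The counts of genes lower with IL-4/IL-13, and higher with Sal003, set A or set B against IL-4/IL-13, moved by less than 1.5 times under each setting applied to them. Under tunicamycin 8 genes rose in the model of all libraries, 13 without the filter on low counts and 16 with only the groups compared; DESeq2 gave 10, and leaving out each mouse gave 6 to 12 higher and 11 to 16 lower. Lowering the fold threshold to 2 gave 4 genes lower under tunicamycin, 2 higher in Sal003 than naive, and 2 lower in set A and 1 in set B than naive. Genes lower in set A than set B numbered 23 without the filter and 4 to 25 on leaving out each mouse. Against naive, Sal003 was higher for 22 genes without the filter, 8 with only the groups compared and 6 to 24 on leaving out each mouse, and lower for 4 under upper-quartile normalization and 0 to 4 on leaving out each mouse. Set A was higher for 4 genes without the filter, 4 with only the groups compared and 2 to 4 on leaving out each mouse, and lower for 9 to 15. Set B was higher for 15 without the filter and 4 to 17 on leaving out each mouse, and lower for 2 to 9; its median log2 fold change of 0.09 became -0.018 without mouse 2 and -0.05 without mouse 5 (range -0.05 to 0.224). With the mouse as a block 12 genes rose under tunicamycin and Sal003 was below naive for 4. With the block 16 genes were lower in set A than set B, and against naive 16 were higher in Sal003, 3 higher and 16 lower in set A, and 11 higher and 6 lower in set B; 30 were at least 2.5-fold lower under tunicamycin than in set A. The other counts of calls were the same with the block as without it. Fold changes near 0 under tunicamycin turned sign: *Ifih1* to -0.019 with upper-quartile normalization, -0.013 with at least 10 counts in every library and -0.011 without mouse 2 (-0.011 to 0.127 on leaving out each mouse), *Xaf1* to -0.022, -0.016 and -0.025 (-0.025 to 0.179) under those settings, and *Herc6* to -0.009 without mouse 4 (-0.009 to 0.227). The cause was not tested. With 4 mice a group, and mouse 4 low throughout Sal003 and both oligomycin groups, counts against naive and between oligomycin groups depended on the mice included.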
